A study of Prunus dulcis and Prunus persica with 12 samples.

Results

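Gene expression was compared between flowers at the pink stage and immature fruits of almond (Prunus dulcis) cultivar Texas, from field-grown and normally watered trees. Both organs came from the same cultivar and neither received a treatment, so the organ and its stage are the only labelled difference. The labels name the cultivar of the tree and do not name the pollen parent of the seed inside the fruit. Each organ was sequenced in 3 libraries, which make 6 of the 12 libraries of the series. The study describes them as biological replicates and does not say whether they came from different trees. The members are the gene models of the phased Texas genome, whose names begin with TexasF0. Of 29183 models, 24081 had at least 1 read in flower or fruit, and 19917 passed edgeR's filter on low counts and were tested. The filter left out 4164 models that had reads, and 5102 had none in the 6 libraries.

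A flower at the pink stage is a bud about to open. It holds petals, sepals, a pistil and stamens whose anthers carry maturing pollen, and in plants such as Arabidopsis the anther and the pollen express many genes that are read weakly or not at all in other organs. An immature fruit is the growing ovary after fertilization, with a dividing and expanding wall around the young seed, and it has shed the petals and stamens. The files pair the identifiers with no gene name, so the marker genes of these organs could not be looked up and the organ labels were not checked against them. Each library is a whole organ, in which fewer cells of a type and less RNA per cell cannot be told apart.

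Between 49635915 and 54926220 reads were counted on gene models in flower, and between 40130120 and 46999320 in fruit. Levels are given as reads, or as CPM (reads scaled to a common library size) scaled with TMM factors, which align the libraries on genes that change little. These factors were between 0.812 and 0.879 in flower and between 1.11 and 1.29 in fruit. Replicates were closer in flower than in fruit. Over 17343 models with at least 10 reads in every library, the median coefficient of variation was 0.108 in flower and 0.221 in fruit, and it was larger in fruit for 79.3% of them.

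Reads were found in both organs for 21429 models, in flower only for 1854 and in fruit only for 798. With edgeR's quasi-likelihood test, 11068 models (55.6%) differed at a Benjamini-Hochberg adjusted p under 0.05. Of all tested models, 5488 (27.6%) had a higher level in flower and 5580 (28%) in fruit. A change of at least 2-fold was found for 3981 (20%) in flower and for 3705 (18.6%) in fruit. The levels of the 3 flower libraries lay above those of the 3 fruit libraries without overlap in 6507 models (32.7%), and below them in 6619 (33.2%).

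The even balance of the calls depends on the scaling. With library totals in place of TMM factors, the median log2 fold change of all models moved by -0.49, and the calls became 3603 toward flower and 8943 toward fruit. The share of calls in the flower direction was then 28.7%, against 49.6% with TMM. Upper-quartile factors moved the median by -0.15 and gave 42.2%. No model was called in opposite directions under any scaling or tool that was tried. Directions below are relative to the TMM scaling.

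The directions were alike in number and unlike in size. Many models were far higher in flower, and few were far higher in fruit. For models with no read in an organ, the fold change was counted at its lower bound, which takes 3 reads in each library of that organ. At least 4-fold changes numbered 2500 in flower and 1506 in fruit, and at least 8-fold changes 1792 and 639. At 32-fold there were 939 models in flower and 108 in fruit, and at 1024-fold 208 and 2. The median log2 fold change of the models called was 1.79 in flower and -1.31 in fruit, against a median absolute value of 0.81 over all tested models.

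**Figure D1:**
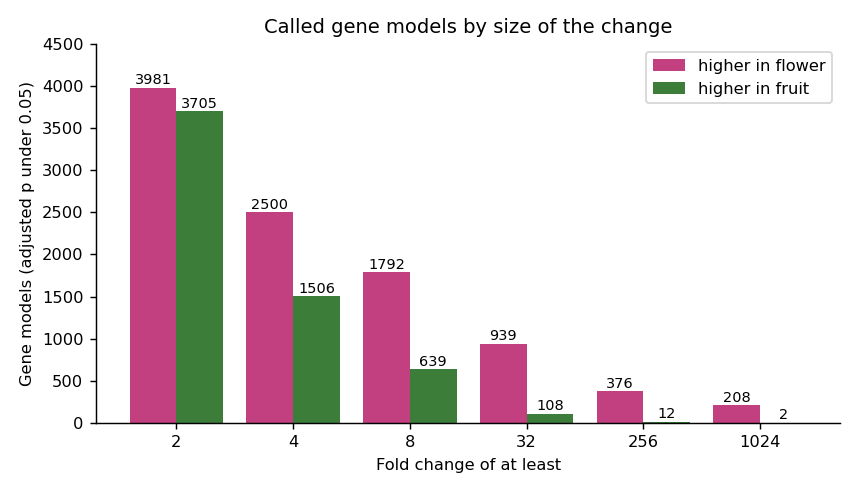
Number of gene models called by edgeR (adjusted p under 0.05, vertical axis) at or above each fold change (horizontal axis), for models higher in flower (pink) and higher in fruit (green). The bars are nearly level at 2-fold (3981 and 3705) and part to 939 and 108 at 32-fold and to 208 and 2 at 1024-fold.

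The asymmetry at large sizes was also present in models that both organs express. Among those with at least 10 reads in every library, 192 were at least 32-fold higher in flower and 29 in fruit, and 28 and 0 passed 256-fold. At 2-fold the order turned, with 2690 in flower and 3267 in fruit.

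The 939 models that were at least 32-fold higher in flower held 20.8%, 19.9% and 22.3% of the reads of the flower libraries (21.0% ± 1.22, SD, n = 3). In fruit they held 0.166% ± 0.0203, and 307 of them were at 0 in every fruit library. The 108 models that were at least 32-fold higher in fruit held 0.516% ± 0.0709 of fruit reads and 0.00555% ± 0.000657 of flower reads. These shares describe models chosen on the same reads and were not tested.

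The size of a change and the chance of calling it both moved with the level of expression. The tested models were divided into 5 groups of nearly equal number by their mean CPM over both organs. In the lowest group (0.109 to 3.01 CPM), 44.2% were called, with a median standard error of 0.57 on the log2 scale. In the highest (58.8 to 11741 CPM), 62.4% were called, and the median standard error was 0.20. The 3 groups between them had 56.8%, 57.1% and 57.3% called.

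Changes of 2-fold went uncalled mainly at low levels. In the lowest group, 15% of the models had a change of at least 2-fold that was not called, and in the highest 0.276%. For these sizes by group, models at 0 in an organ were again taken at their lower bound. The median absolute log2 fold change of called models was 2.83 in the lowest group, then 1.60, 1.19, 1.06 and 1.32 in the groups above it. The groups were formed on the same libraries as the changes. At a low mean, a model can pass the filter through a single organ, which favours large changes there. Sizes and directions by group are therefore descriptive and were not tested. The direction also varied with the level. Models higher in flower made up 55.9% of the calls in the lowest group, 39.0% and 37.4% in the next groups, 48.3% in the fourth and 67.1% in the highest. Changes of at least 32-fold in flower were most frequent at both ends of the scale, with 225 models in the lowest group, 261 in the highest and 123 to 205 in the others. In fruit they fell in number from 35 to 9.

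**Figure D2:**
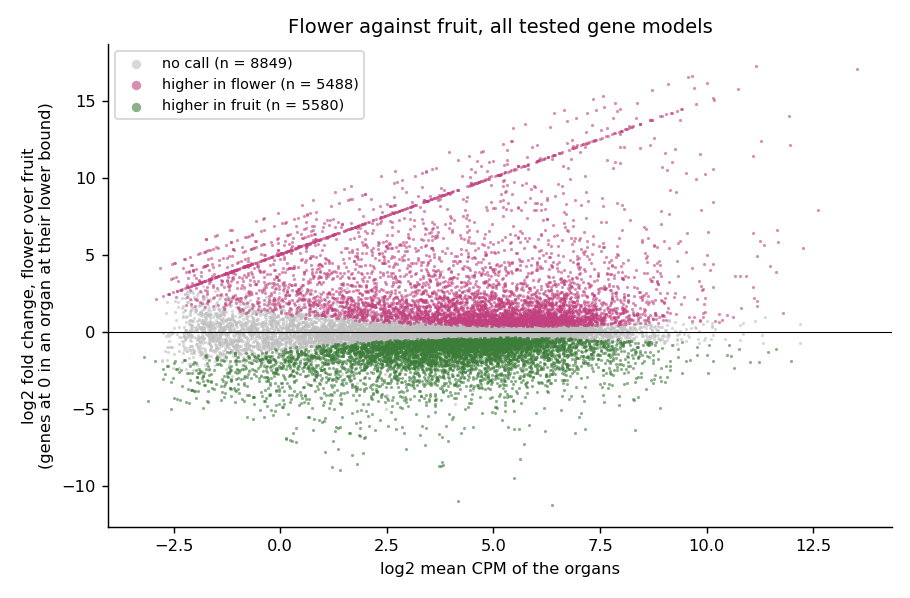
Log2 fold change of flower over fruit (vertical axis) against log2 of the mean CPM of the organs (horizontal axis) for the 19917 tested gene models, with models at 0 in an organ drawn at their lower bound. Models higher in flower (pink, 5488) reach much farther from 0 than those higher in fruit (green, 5580), and the straight upper bands are models with 0 or very few reads in fruit.

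On/off genes were defined as models with at least 10 reads in each library of an organ and 0 in each library of the other. There were 475 such models in flower and 33 in fruit. Of the 475, 448 passed the filter and all 448 were called, as were the 33 in fruit, which follows from the definition and is no further result. The flower set had a median of 4.67 CPM (0.251 to 3388), and 80 of its models exceeded 100 CPM. The fruit set had a median of 1.55 CPM (0.315 to 167), and 1 model exceeded 100 CPM.

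The on/off genes took 4.02%, 2.85% and 4.30% of the reads in the flower libraries (3.72% ± 0.767, SD, n = 3), and 0.0314% ± 0.00583 in fruit. At least 1000 reads in every library of the organ were counted for 133 models in flower and for 2 in fruit. Among the libraries left out in turn, the fruit count moved most without flower library 1, to 50, and the flower count without fruit library 3, to 608.

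The highest on/off gene of flower was TexasF0_G19989, on chromosome 6. It had 163592, 110229 and 166637 reads in the flower libraries and 0 in each fruit library. At 3388 CPM ± 976 (SD, n = 3) it was the 26th most abundant model of flower by reads, and it was at least 56507-fold higher than in fruit when 3 reads are allowed in each fruit library. TexasF0_G1840, on chromosome 1, had 99553, 75535 and 117099 reads in flower and 0 in fruit, which makes it at least 37527-fold higher.

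TexasF0_G3579 and TexasF0_G3580 carry consecutive numbers on chromosome 1. TexasF0_G3579 had 64794, 45933 and 66660 reads in flower and 0 in fruit. TexasF0_G3580 had 80389, 56652 and 86558 reads in flower and 0 in fruit. Their 3 flower libraries stood in the same order, with library 2 the lowest and library 3 the highest. If the models are close copies, the counting could share reads between them, and their separate levels are then uncertain. TexasF0_G30073 on chromosome 8 had 66022, 44725 and 63557 flower reads, and TexasF0_G10396 on chromosome 3 had 56532, 42280 and 64628, both with 0 reads in fruit. The lower bounds of the latter 4 genes ranged from 20982-fold to 28699-fold.

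In fruit, 1 model stood far above the other on/off genes. TexasF0_G16172, on chromosome 4, had 8647, 8986 and 7208 reads in the fruit libraries and 0 in flower, and was at least 2435-fold higher at 167 CPM ± 35.1 (SD, n = 3). TexasF0_G18800 on chromosome 5 followed with 1696, 1268 and 1260 reads, at least 410-fold higher. It is also the last member of a run of 4 neighbours that were higher in fruit.

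The remaining named fruit genes had few reads and varied between libraries. TexasF0_G14038 had 372, 533 and 253 reads in fruit, TexasF0_G180 had 601, 324 and 159, and TexasF0_G28106 had 368, 210 and 196. TexasF0_G29547 had 154 and 94 reads in fruit libraries 1 and 2 and 931 in library 3, so that its mean rests largely on 1 library. All 4 were at 0 in flower, with lower bounds from 74.9-fold to 116-fold.

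**Figure D3:**
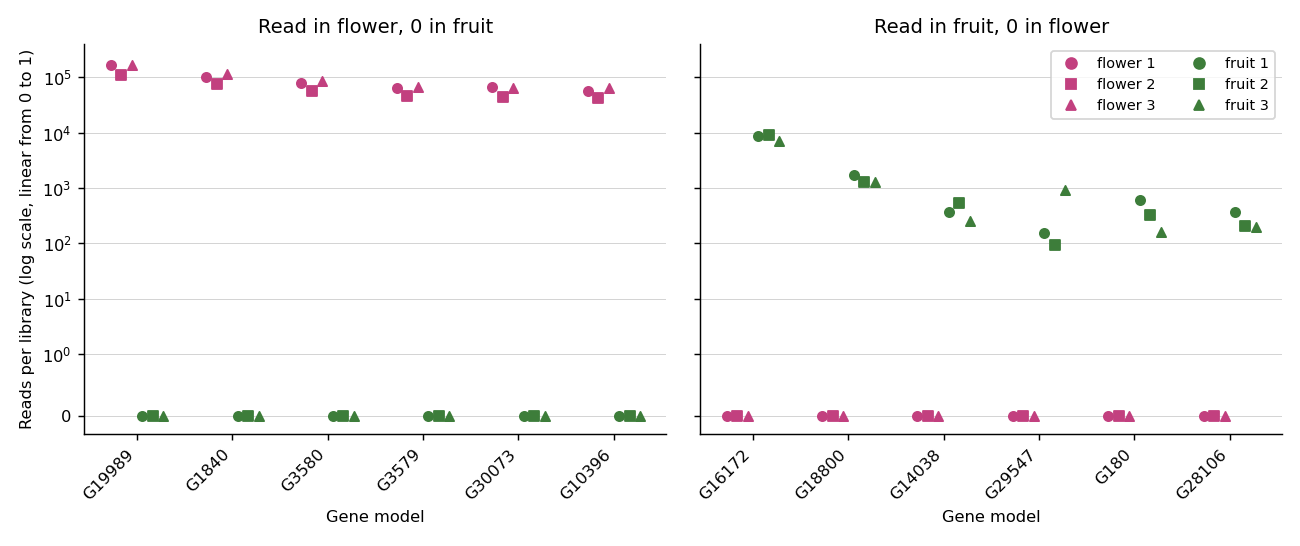
Reads in each of the 6 libraries (vertical axis, log scale that is linear from 0 to 1) for the 6 on/off gene models with the highest mean CPM in flower (left) and in fruit (right). The flower models lie between 42280 and 166637 reads in flower and at 0 in every fruit library, while the fruit models lie between 94 and 8986 reads in fruit.

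The on/off genes of flower shared a pattern over libraries that the definition did not use. Relative to the mean of the flower libraries, their median level was 1.12 in flower library 1, 0.739 in library 2 and 1.08 in library 3. Library 2 was the lowest for 341 of the 475 (71.8%), and for 120 of the 133 with at least 1000 reads in every flower library (90.2%), so this was not confined to low counts. Among models that were higher in flower and also read in fruit, the medians were 1.01, 0.970 and 1.03 over 5040 models, and library 2 was the lowest for 45.2%. For the 8849 models that were not called, they were 0.999, 1.0 and 0.994, and library 2 was the lowest for 32.7%.

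The same library was lowest for 654 of the 939 models at least 32-fold higher in flower (69.6%), which include 307 models at 0 in fruit. It was the highest for 119 of them (12.7%), against 31.9% of all tested models. All tested models together had library 2 lowest in 36.4%. The median coefficient of variation over the flower libraries was 0.288 for the on/off genes, 0.266 for the 133 with many reads, and 0.117 for the models not called. Whether the libraries differed in the stage or the parts of the flower was not tested. In fruit, the 33 on/off genes had medians of 0.998, 1.14 and 0.664, with library 3 lowest for 19 (57.6%). Among all tested models, fruit library 3 was lowest for 31.0%.

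**Figure D4:**
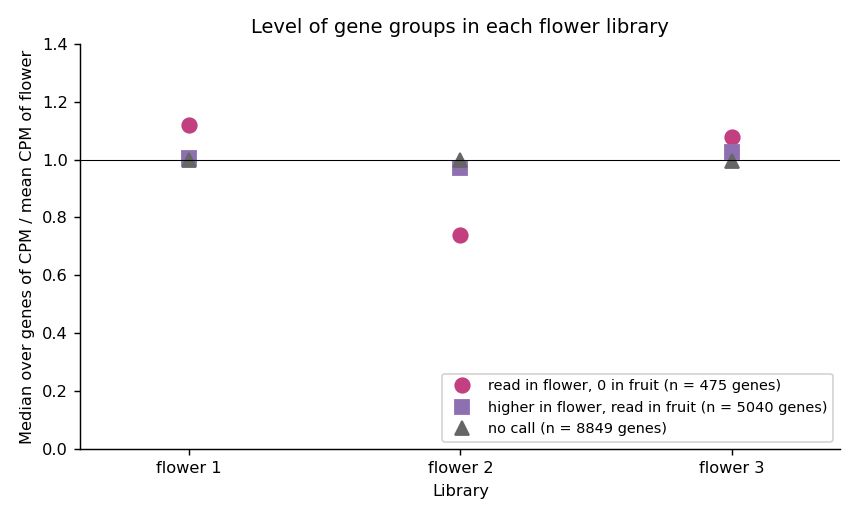
Median over gene models of the level in a flower library divided by the mean of the 3 flower libraries (vertical axis, ratio of CPM) for each library (horizontal axis), for on/off genes of flower (pink circles), models higher in flower and read in fruit (purple squares) and models not called (grey triangles). The on/off genes fall to 0.739 in library 2, while the models not called stay between 0.994 and 1.0.

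How sharp the boundary of the on/off genes was could be read from the models just outside it. With at least 10 reads in each flower library and a highest fruit library of 1 to 3 reads there were 174 models, with 4 to 9 reads 278, and with 10 or more 18118. For fruit, 35 models had a highest flower library of 1 to 3 reads and 170 had 4 to 9. A separate counting of the same libraries at sites that differ between the parental alleles covers 84 of the 475 flower models. No allelic read was counted in fruit for 82 of them, though only 76 of the 84 had at least 10 allelic reads over the flower libraries. The 7 fruit models it covers had none in flower and 417 in fruit, summed over models and libraries.

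The 2 exceptions were chosen after their values were seen. TexasF0_G11340 had 39, 37 and 31 reads in flower and 0 in fruit in the gene counts, but 187, 187 and 179 allelic reads in flower and 94, 27 and 58 in fruit. The countings therefore disagree on its absence from fruit, and the cause was not tested. TexasF0_G14459 had 348, 368 and 463 reads in flower, 0 in fruit, and 1 allelic read in fruit.

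The reads of flower were concentrated on fewer genes than those of fruit. The models that together hold 50% of the reads numbered 820, 856 and 756 in the flower libraries and 1581, 1114 and 1350 in the fruit libraries (811 ± 50.6 and 1348 ± 234, SD, n = 3). The organs did not overlap (p = 0.1 in a two-sided exact permutation test, which cannot go lower with 3 libraries in each organ). At 90% of the reads the numbers were 6722 ± 157 and 7891 ± 328, again without overlap. The 100 models with the most reads in flower held 23.7% ± 0.448 of flower reads, and those of fruit held 15.7% ± 2.22 of fruit reads.

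The models with the most reads in flower were mostly higher in flower, and fewer of those of fruit were higher in fruit. Of the 100 models with the most reads in flower, 80 were higher in flower, 42 of them at least 32-fold, and 8 were at 0 in fruit. Of the 100 of fruit, 44 were higher in fruit, 14 were higher in flower, and none reached 32-fold or was at 0 in flower. Over all 19917 tested models, 27.6% were higher in flower and 28% in fruit, and 939 and 108 models were at least 32-fold higher. The median log2 fold change toward the own organ was 3.94 for the flower list and 0.63 for the fruit list, and 33 models were on both. The lists were chosen on these reads, which favours calls toward the own organ. No gene lengths were used, so the order is one of reads and not of transcripts.

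TexasF0_G11013, on chromosome 3, had the most reads in flower, with 761666, 1441280 and 932842, and 18, 8 and 0 in fruit. It took 1.99% ± 0.585 of flower reads, and its log2 fold change was 17.03 (standard error 1.08, edgeR adjusted p = 1.44e-05). Its highest flower library was library 2, unlike the on/off genes above. It is the first of a run of 4 consecutive models higher in flower.

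The next genes differed in how far they were also read in fruit. TexasF0_G29063 had 626339, 504852 and 495141 reads in flower and 3206, 1680 and 2890 in fruit (log2 fold change 7.93, standard error 0.42). TexasF0_G7150 had 480660, 366957 and 416645 in flower and 8397, 6946 and 18822 in fruit (5.45, standard error 0.47), and it still ranked 568th by reads in fruit. Fruit library 3 held more than the other fruit libraries for this gene, and the organs did not overlap.

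TexasF0_G3450, the 6th in flower, had 253473, 271703 and 314820 reads there and 5939, 5605 and 5730 in fruit. Its log2 fold change was 5.80 (standard error 0.32, edgeR adjusted p = 9.89e-06). TexasF0_G7099 had 319974, 403905 and 330217 reads in flower and 28, 185 and 44 in fruit, and TexasF0_G2678 had 307425, 394923 and 322067 in flower and 10, 45 and 12 in fruit. In both of these genes flower library 2 was the highest, again unlike the on/off genes. Their log2 fold changes of 12.10 and 14.03 were the largest toward flower among models with at least 10 reads in every library.

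The gene with the most reads in fruit was TexasF0_G22897, on chromosome 6. It had 68051, 79137 and 78989 reads in flower and 192228, 401588 and 339347 in fruit, where it took 0.733% ± 0.263 of the reads. It was higher in fruit (log2 fold change -1.87, standard error 0.37, edgeR adjusted p = 0.00368). TexasF0_G12729 on chromosome 3, at rank 6 in fruit, had 45988, 43926 and 39714 reads in flower and 146205, 264650 and 140793 in fruit (log2 fold change -1.94, standard error 0.37, edgeR adjusted p = 0.00309). Both organs expressed these genes strongly, and the fruit libraries spread more widely than the flower libraries.

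The other abundant genes of fruit were close to the threshold or past it. TexasF0_G13992 had 87585, 85102 and 85912 reads in flower and 166728, 177339 and 326650 in fruit (log2 fold change -1.16, standard error 0.30, edgeR adjusted p = 0.0133). TexasF0_G27331 had 77930, 67929 and 65947 in flower and 141076, 259070 and 183348 in fruit (-1.30, standard error 0.34, edgeR adjusted p = 0.0129). The first call was lost without any single flower library (adjusted p from 0.0543 to 0.0628 in edgeR) and the second without flower library 2 or 3 (0.0572 and 0.0573).

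TexasF0_G4465 and TexasF0_G14152 were not called by edgeR, and both were called by DESeq2 (adjusted p = 0.00722 and 0.0124). TexasF0_G4465 had 132279, 166308 and 155335 reads in flower and 219943, 288205 and 377479 in fruit, and its log2 fold change was -0.77 (standard error 0.30, edgeR adjusted p = 0.0577). It passed without fruit library 1 (edgeR adjusted p = 0.0179), with upper-quartile factors (0.0266) and with library totals (0.00293). TexasF0_G14152 had 225078, 259112 and 238089 reads in flower and 172721, 148618 and 266475 in fruit. It ranked 9th in flower and 5th in fruit, and its log2 fold change was 0.51 (standard error 0.28, edgeR adjusted p = 0.154). It passed without fruit library 3 (edgeR adjusted p = 0.0440).

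Among models with at least 10 reads in every library, the largest changes toward flower after the genes above were in TexasF0_G10275, TexasF0_G29012, TexasF0_G5471 and TexasF0_G24804. TexasF0_G10275 on chromosome 2 had 59880, 39744 and 58828 reads in flower and 14, 13 and 22 in fruit (log2 fold change 11.87, standard error 0.43, edgeR adjusted p = 3.41e-06). TexasF0_G29012 on chromosome 8 had 47848, 34863 and 51695 in flower and 22, 12 and 16 in fruit (11.60, standard error 0.42). TexasF0_G5471 on chromosome 1 had 88533, 59427 and 91217 in flower and 18, 34 and 41 in fruit (11.53, standard error 0.52). In these 3 genes flower library 2 was again the lowest.

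TexasF0_G24804 on chromosome 7 had 159263, 209344 and 206685 reads in flower and 74, 83 and 83 in fruit (log2 fold change 11.41, standard error 0.38), so that its lowest flower library was library 1. All 6 of these models were chosen among those without overlap between the organs, so their separation is no further result.

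Under the same limit of at least 10 reads in every library, the largest changes toward fruit were smaller. TexasF0_G15624 on chromosome 4 led these with 33, 28 and 24 reads in flower and 3925, 4963 and 6783 in fruit (log2 fold change -7.33, standard error 0.28, edgeR adjusted p = 3.69e-06). TexasF0_G23264 on chromosome 6 had 168, 173 and 115 reads in flower and 14338, 11068 and 17457 in fruit (-6.36, standard error 0.23). Both had replicates that stayed close together beside the distance between the organs.

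The others varied more in fruit. TexasF0_G11666 had 136, 116 and 83 reads in flower and 8380, 16478 and 10249 in fruit (log2 fold change -6.56, standard error 0.42), and TexasF0_G28713 had 15, 24 and 14 in flower and 1504, 1275 and 3022 in fruit (-6.55, standard error 0.39). TexasF0_G15572 had 65, 84 and 73 in flower and 2102, 3831 and 16916 in fruit (-6.43, standard error 0.81), where library 3 held most of the reads. TexasF0_G8969, the most abundant of these at rank 102 in fruit, had 431, 381 and 194 in flower and 21195, 56617 and 12378 in fruit (-6.40, standard error 0.75). Fruit library 2 was its highest by a wide margin. These fruit models were also chosen among those without overlap between the organs.

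Gene numbers rise along the chromosomes wherever the names in the allele table carry a chromosome, so models with neighbouring numbers are taken as neighbours. Genes duplicated in tandem lie side by side in plant genomes and often keep related activity, and close copies can share reads in the counting. Changes were more alike between neighbours than between distant models. In 15698 pairs of tested models with consecutive numbers, the log2 fold changes correlated weakly (Pearson 0.18, Spearman 0.15, across genes, which are not independent replicates and share all 6 libraries).

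Where both members of a pair changed at least 2-fold, they moved in the same direction in 64.9% of 2542 pairs. The share was 55.7% for numbers 2 apart, 52.5% for 10 apart and 48.4% for 100 apart. The model after one that was at least 2-fold higher in flower was so itself in 28.6% of cases (20.5% at a distance of 100), against 20% of all tested models. For fruit it was 26.6% (18.6% at 100), against 18.6%. On/off genes of flower had an on/off gene at the next number in 54 cases (11.4%), and 100 numbers on in 4 (0.842%).

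Runs were defined as at least 4 consecutive numbers that were all called and changed at least 2-fold in the same direction. There were 39 runs toward flower with 178 models and 33 toward fruit with 156 models, which are 4.47% and 4.21% of the models that changed so. The models of flower runs included 27 on/off genes and those of fruit runs 1. For reference, there were 448 tested on/off genes beside 3981 models at least 2-fold higher in flower, and 33 beside 3705 in fruit. Most runs had 4 models, 27 in flower and 18 in fruit, and the longest had 8 in both directions.

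The count of runs depended on its limits. Without fruit library 3 there were 60 runs toward flower. With library totals in place of TMM factors there were 25 toward flower and 132 toward fruit. Of the 72 runs, 70 could be placed on a chromosome. Chromosome 1, with 4337 tested models placed on it, held 10 flower runs and 3 fruit runs, and chromosome 7, with 1953, held 6 flower runs and no fruit run. The share of placed models at least 2-fold higher in flower was similar over the chromosomes (18.2% to 21.9%), as was that in fruit (17.2% to 20%), and differences in run counts between chromosomes were not tested. Several runs tie at 6 models, 5 toward flower and 6 toward fruit. Those described were taken in order of the mean absolute log2 fold change, which favours runs of on/off genes, and the other 4 flower runs of 6 models hold 0 or 1 on/off gene.

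The run from TexasF0_G13177 to TexasF0_G13183 on chromosome 3 consisted of 7 on/off genes of flower. Their flower reads ranged from 362 in the lowest library of TexasF0_G13182 to 5411 in the highest of TexasF0_G13178, and every fruit library was at 0. TexasF0_G13178 had 5411, 2853 and 3463 reads in flower and was at least 1495-fold higher. In all 7 models flower library 1 was the highest, whereas the 6 named on/off genes of flower had their highest CPM in library 3.

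The run from TexasF0_G29002 to TexasF0_G29007 on chromosome 8 held 6 on/off genes at higher levels. TexasF0_G29006 had 27885, 20122 and 30086 reads in flower and was at least 10018-fold higher. TexasF0_G29004, TexasF0_G29005 and TexasF0_G29007 had between 15053 and 26724 reads per flower library, and TexasF0_G29002 between 5931 and 9282. TexasF0_G29003 between them had only 59, 14 and 41. Flower library 2 was the lowest in all 6.

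The longest flower run, from TexasF0_G19381 to TexasF0_G19388 on chromosome 5, was less uniform. It held 3 on/off genes, and its largest change was in TexasF0_G19385, with 226, 138 and 253 reads in flower and 0 in fruit (at least 79.6-fold higher). TexasF0_G19383 had 1934, 1514 and 1688 reads in flower and also 611, 837 and 732 in fruit (log2 fold change 1.42, standard error 0.23, edgeR adjusted p = 0.00135). The allele counts of that gene, which cover only sites that differ between the alleles, held 206 reads in flower and 0 in fruit. The cause of this disagreement between the countings was not tested.

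In fruit, the longest run went from TexasF0_G9064 to TexasF0_G9071 on chromosome 2, with 8 models whose log2 fold changes lay between -1.99 and -6.60. TexasF0_G9064 had 141, 141 and 102 reads in flower and 3142, 1693 and 1288 in fruit (log2 fold change -3.81, standard error 0.36). TexasF0_G9069 had 10, 9 and 1 in flower and 1344, 691 and 159 in fruit (-6.60, standard error 0.97). In all 8 models, fruit library 1 was the highest and library 3 the lowest by reads, so the run varied as a block across libraries.

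The run from TexasF0_G13008 to TexasF0_G13013 on chromosome 3 had 6 models. Its largest change was in TexasF0_G13008, with 8, 2 and 2 reads in flower and 38, 149 and 38 in fruit (log2 fold change -4.08, standard error 0.92). TexasF0_G13010 had the most reads, with 935, 1338 and 808 in flower and 5110, 5845 and 1527 in fruit (-1.90, standard error 0.49). Its call was lost without flower library 3 (edgeR adjusted p = 0.0514), which breaks the run.

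The run from TexasF0_G18583 to TexasF0_G18588 on chromosome 5 also had 6 models. TexasF0_G18587 changed most, with 355, 197 and 181 reads in flower and 6451, 10705 and 10657 in fruit (log2 fold change -5.07, standard error 0.39, edgeR adjusted p = 3.21e-05). TexasF0_G18583 changed least, with 1350, 1278 and 1279 in flower and 3610, 2694 and 2911 in fruit (-1.04, standard error 0.16). The organs did not overlap in either gene.

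**Figure D5:**
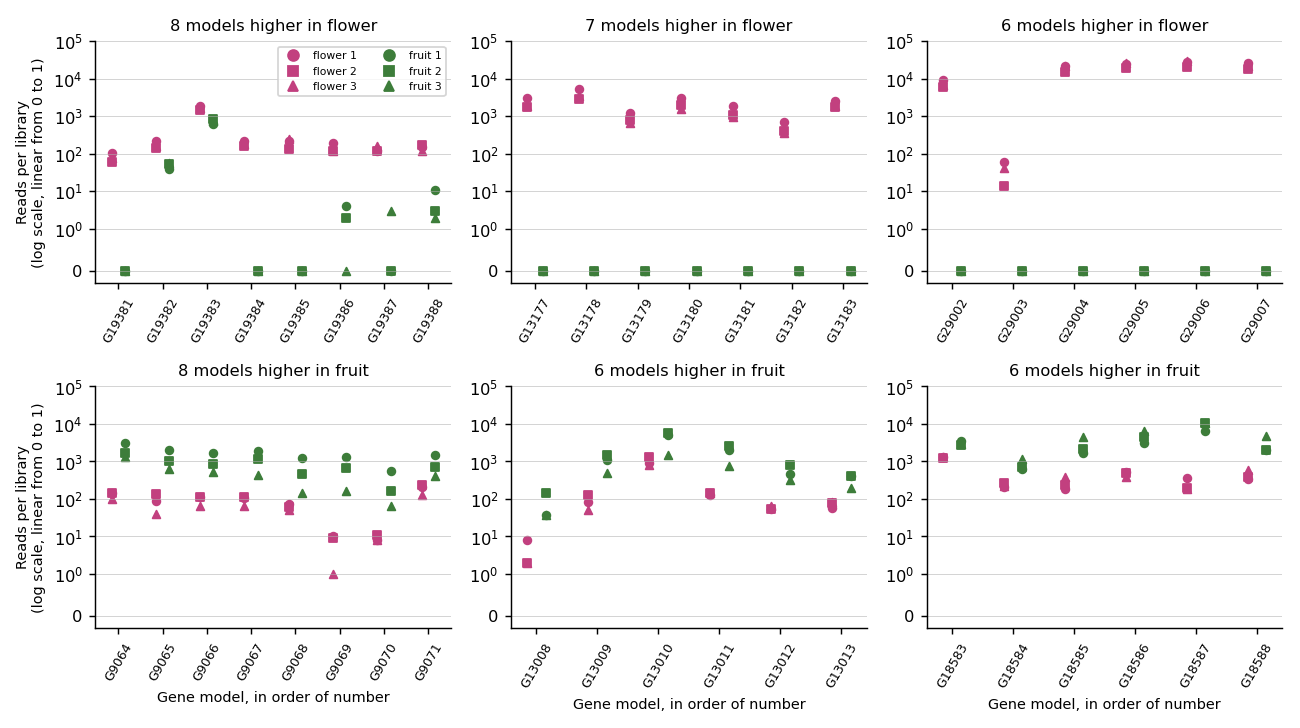
Reads in each library (vertical axis, log scale that is linear from 0 to 1) for the gene models of 3 runs higher in flower (top) and 3 higher in fruit (bottom), the longest with ties broken by the larger mean absolute log2 fold change, in order of gene number (horizontal axis). The middle and right flower runs lie at 0 in every fruit library, while every fruit run has reads in both organs.

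Descriptions were at hand only for a list of 28 genes in the Vr3 region of chromosome 2. The study showed this powdery mildew resistance locus as an example of its improved assembly. That list names its genes with the prefix TexasF1, and equal numbers are assumed here to stand for the same gene. Of the 16 that were tested, 4 were called toward flower and 5 toward fruit, beside 27.6% and 28% of all tested models, and their median absolute log2 fold change of 0.81 was close to that of all tested models. TexasF0_G8086, described as a chloroplastic protein EMBRYO SAC DEVELOPMENT ARREST 3 or as an uncharacterized protein, had 68, 142 and 123 reads in flower and 362, 303 and 371 in fruit. It was higher in fruit (log2 fold change -1.44, standard error 0.30, edgeR adjusted p = 0.00479).

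TexasF0_G8094, which encodes a protein with a plant mobile domain, had 359, 425 and 201 reads in flower and 961, 486 and 1082 in fruit (log2 fold change -1.16, standard error 0.31, edgeR adjusted p = 0.0137). TexasF0_G8105, described as a zinc ion-binding protein, was an on/off gene of flower with 20, 16 and 10 reads that did not pass the filter. TexasF0_G8104, which encodes the sister chromatid cohesion protein DCC1, had 2256, 2444 and 2168 reads in flower and 2480, 1944 and 2290 in fruit, a log2 fold change of 0.23 that was not called (standard error 0.13). Of the 6 tested genes described as disease resistance genes, TexasF0_G8091, TexasF0_G8093 and TexasF0_G8097 were higher in fruit. TexasF0_G8092, TexasF0_G8096 and TexasF0_G8098 were not called. The call of TexasF0_G8093 was lost without flower library 3 (edgeR adjusted p = 0.0646). TexasF0_G8092 gained a call with libraries of equal number treated as blocks (0.0485). In the list, the span given for TexasF0_G8098 lies inside that of TexasF0_G8097. If the counting divided reads between this pair, their separate levels and calls are uncertain, which was not tested. The calls toward flower were the putative aldehyde oxygenase genes TexasF0_G8106 and TexasF0_G8110, and TexasF0_G8088 and TexasF0_G8102, whose calls were lost under several alternatives, among them upper-quartile factors (edgeR adjusted p = 0.0974 and 0.148).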

How the data were processed

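RNA was extracted from flowers and immature fruits, and libraries were made with a stranded mRNA protocol and sequenced as paired reads of 150 bases. The authors aligned the reads to transcript models (Bowtie2) and quantified genes with RSEM. The deposited values are unnormalized estimated counts, all whole numbers. The authors made the allele counts by mapping the same reads to Phase-0 with HISAT2 and counting with GATK, and these deposited counts were used to check on/off genes and members of the named runs, and for chromosome names. Versions and the use of strand in counting are not given in the sources used here. The 9 leaf columns of these tables match no sample and were not used, nor were the regularized log values. The peach libraries were not analysed here.

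Counts were fitted with edgeR 4.0.16 in R 4.3.3 (quasi-likelihood test, TMM factors, filterByExpr, organ as the only term), with p-values adjusted over 19917 models. The standard errors given are the absolute log2 fold change divided by the square root of the F statistic of the quasi-likelihood test. The study names DESeq2 without a formula, and DESeq2 1.42.0 was run as an alternative. In data simulated for this comparison over 19783 genes, 96 of 100 genes changed 4-fold and 18 of 99 changed 2-fold were called, with 5 of 19584 unchanged genes. The simulation gave every gene the same dispersion (spread between replicates beyond counting error) and changed far fewer genes than were called in the data. These shares check the procedure and do not measure what share of real changes was called. Counting error alone does not describe the replicates, whose chi-square per degree of freedom was 43.9 to 194. Deviations from the organ means correlated at 0.0367, -0.0838 and 0.0908 between flower and fruit libraries of equal number. Between libraries of unlike number the correlations lay between -0.157 and 0.132. With 3 libraries in each organ, this cannot exclude that equal numbers share a tree or a batch.

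Named genes were the 6 highest on/off genes, the 6 with the most reads and the 6 largest changes of each organ, the 3 longest runs of each direction (ties by the larger mean absolute log2 fold change), and the annotated Vr3 genes. The largest changes were taken among called models with at least 10 reads in every library and no overlap between the organs. The members and lists were chosen with earlier results of these data known. Chromosomes were taken from names in the allele table, where the nearest named models on both sides agreed. None of the identifiers matched the reference table of gene names.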

Additional observations from a re-analysis of the deposited data

How the results depend on the processing

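Counts of genes and on/off genes of flower stayed within 1.5 times under most alternatives. Library totals gave 3603 models in flower, 8943 in fruit, 6324 at least 2-fold higher in fruit, and 25 and 132 runs. Upper-quartile factors gave 50 fruit runs. Requiring at least 10 reads in every library gave 13 and 19 runs and 196 and 29 models of at least 32-fold, a size whose alternatives were chosen after seeing the data. Runs numbered 102 in flower and 89 in fruit without a fold limit, 15 and 5 at an absolute log2 fold change of 2, 80 and 68 with untested models skipped, 145 and 119 with at least 3 models, and 7 and 7 with at least 6. Leaving out 1 library at a time gave 35 to 60 flower runs, 25 to 37 fruit runs, and 40 to 50 on/off genes of fruit. On/off genes of fruit numbered 15 with at least 50 reads, 69 with at least 3, 68 with up to 3 reads allowed in each flower library, and 55 with up to 3 in all. The 10 genes with the most reads held 7.66% in flower and 4.69% in fruit, and the 1000 held 53.3% and 44.0%. Of the values of named genes, 1115 kept direction and call, 9 gained a call, 20 lost it, and 1 reversed, the log2 fold change of TexasF0_G8102 at -0.077 with library totals. A replicate block gave 5243 models in flower and 4965 in fruit, 4051 and 3534 at least 2-fold, and 43 and 29 runs. Whether libraries of equal number belong together is not known. The spread in fruit and low counts limit what could be called. Apart from the fewer models or libraries that some alternatives use, the cause of these shifts was not tested.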
